A study of Mus musculus with 8 samples.

Results

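The genes described here encode the proteins of the mitochondrial ribosome, as far as their symbols begin with Mrpl (large subunit) or Mrps (small subunit) and a number. The members were found by symbol alone: among probe sets annotated to exactly 1 gene, the one with the highest mean over all 8 arrays stood for each gene, and 71 of the 22180 genes so measured matched. Of the 71, 45 belong to the large subunit and 26 to the small subunit. Mrps18a and Mrps30 are counted in the large subunit, where their proteins sit despite their names. Another 7 members (Mrpl30, Mrpl33, Mrpl41, Mrpl43, Mrpl44, Mrpl53 and Mrps6) were measured only by probe sets shared with another gene and are not among the 71.

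The mitochondrial ribosome translates the few proteins that the mitochondrial genome encodes, all of them subunits of the respiratory chain and ATP synthase. Its RNAs come from mitochondrial DNA, whereas each of its proteins is encoded in the nucleus, made in the cytosol and imported, so that assembly draws on both genomes. Hepatocytes are rich in mitochondria. VWA8 itself is an ATPase of the AAA kind that is found in mitochondria.

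The study compared AML12 cells, a hepatocyte line from the liver of a mouse that carries a transgene for TGF-alpha, in 2 genotypes: 4 wild-type cultures, and 4 cultures from which VWA8 had been deleted with CRISPR/Cas9. The cultures were kept separate and differentiated. Medium for both genotypes was DMEM/F12 with serum (10%), antibiotics, insulin (0.005 mg/ml), transferrin, selenium and the glucocorticoid dexamethasone (40 ng/ml). Total RNA of each culture went to 1 Affymetrix mouse array. The number of clones behind the knockout cultures was not given in the sources used here, and an effect of clone and one of the deletion cannot be told apart. The p-values measure the spread between these cultures only.

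Values are the authors' log2 signals, and a log2 fold change is the knockout mean minus the wild-type mean, printed with its standard error (SE). A gene was called higher or lower where limma's adjusted p, taken over all 22180 genes, lay under 0.05. Signals of different probe sets are not compared as expression levels. The median signal of all probe sets lay between 4.27 and 4.33 on every array. The Vwa8 signal was 8.95 in wild-type and 5.18 in knockout cells, a log2 fold change of -3.77 ± 0.0696 (limma adjusted p = 4.84e-08). Of 10 hepatocyte markers 9 were measured, and all 9 lay above the median gene. Their summed level, as the list's mean signal, ran from 10.56 to 10.62 in wild-type and from 11.34 to 11.46 in knockout cells, with 9 of 9 higher. Of the cholangiocyte markers 4 of 5 were measured (means 6.75 to 6.86 in wild-type and 6.56 to 6.76 in knockout cells), and 3 of the 4 lay above the median gene. Sox9 read 10.07 in wild-type and 10.18 in knockout cells, Krt19 8.66 and 8.47, Krt7, which was called lower, 6.13 and 5.61, and Epcam 2.40 and 2.35. The mean signals of the lists for macrophages, endothelium and stellate cells stayed between 3.49 and 4.06 on every array, and none of their genes passed. Whether the rise of hepatocyte markers or the fall of Krt7 bears on the results below was not tested. In bulk RNA, fewer cells of a type and less RNA per cell cannot be told apart.

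The mitochondrial ribosomal protein genes changed little, and those that passed the test mostly rose. Of the 71, 11 were higher and 2 were lower in the knockout, together 18.3%, where 20.9% of all genes passed, 10.4% higher and 10.4% lower. The members' shares were 15.5% higher and 2.82% lower. Among genes brighter than the median gene, to which 69 of the 71 members belong, 37% passed, 18.6% higher and 18.3% lower. The members' share of calls was thus close to that of all genes and below that of brighter genes, and their share of falls was below both. The median log2 fold change of the 71 was 0.09, with quartiles of -0.01 and 0.17, and all 22180 genes had a median of -0.00. A positive value was found for 52 of the 71 (73.2%) against 49.5% of all genes. These figures describe the members and are no test of them as a group.

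**Figure D1:**
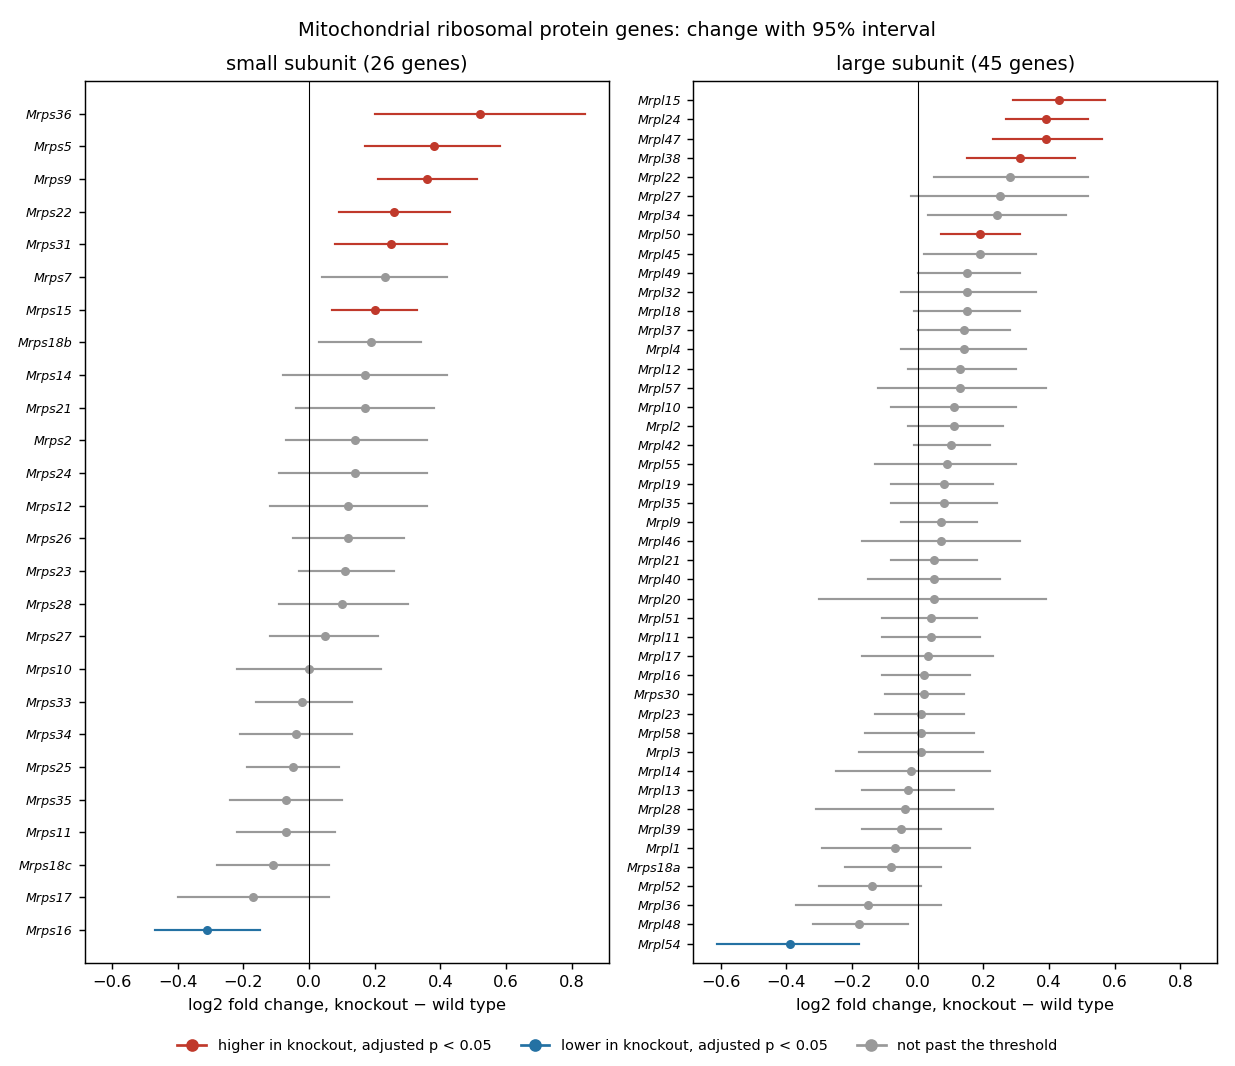
Log2 fold change (knockout minus wild type, x axis) of each of the 71 mitochondrial ribosomal protein genes with its 95% interval from limma, small subunit on the left and large subunit on the right. Red marks the 11 genes called higher, blue the 2 called lower, and most points lie slightly right of 0, between -0.39 and 0.52.

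The sizes were small, with a median of 0.12, compared with 0.14 over all genes and 0.18 over genes brighter than the median gene. Of the 71 changes, 55 were under 0.2 in size on the log2 scale, and 1, that of Mrps36, reached 0.5. All 71 of the 95% intervals lay within 1 of 0, and 62 lay within 0.5 of 0. No member's interval thus reached a change of 2-fold in signal. The SD within a genotype had a median of 0.0952 over the members, compared with 0.0936 over genes brighter than the median gene. The wild-type and knockout arrays did not overlap for 17 members (23.9%), 13 of them higher and 4 lower, where 26.1% of all genes (12.9% higher and 13.2% lower) and 46.4% of genes brighter than the median gene were separated in this way.

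**Figure D2:**
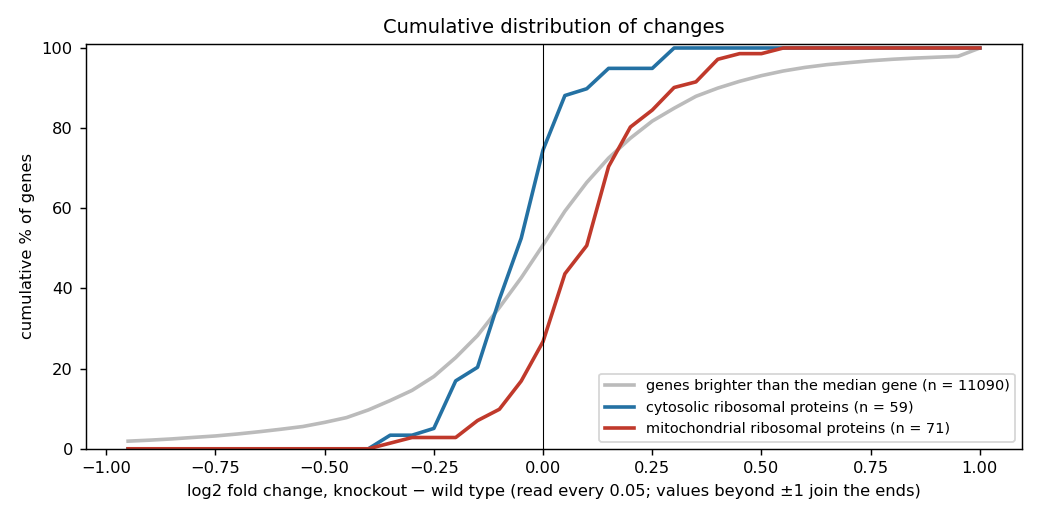
Cumulative percentage of genes (y axis) up to each log2 fold change (x axis) for the 71 mitochondrial ribosomal protein genes, 59 cytosolic ribosomal protein genes and 11090 genes brighter than the median gene. The mitochondrial curve lies to the right of the other curves near 0 (73.2% of values positive), the cytosolic curve to the left (25.4% positive).

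Before the single members, the sequence before the start site is shown for 6 genes that stand for the patterns found: Mrpl24 and Mrpl47, which rose and held none of the motifs searched, Mrps22, which rose and held a GABP motif, Mrpl22, which narrowly missed the threshold and held motifs of NRF1 and GABP, Mrpl32 with a pair of NRF1 motifs, and Mrpl36 with YY1 and E-box motifs. NRF1, GABP and YY1 are factors known to bind promoters of nuclear genes for mitochondrial proteins, and the E-box is bound by MYC and related factors. The sequences are the 150 bases before the start site from RefSeq on GRCm38.p6, 5′ to 3′ on the gene's strand, with motif matches in capitals.
Mrpl24, chr3:87919394-87919543, plus strand: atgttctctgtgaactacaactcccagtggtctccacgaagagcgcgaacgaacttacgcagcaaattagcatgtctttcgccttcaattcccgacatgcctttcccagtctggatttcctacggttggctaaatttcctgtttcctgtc
Mrpl47, chr3:32736756-32736905, minus strand: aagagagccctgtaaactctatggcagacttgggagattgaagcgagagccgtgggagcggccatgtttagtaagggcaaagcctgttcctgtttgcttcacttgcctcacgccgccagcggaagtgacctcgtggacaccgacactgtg
Mrps22, chr9:98601680-98601829, minus strand: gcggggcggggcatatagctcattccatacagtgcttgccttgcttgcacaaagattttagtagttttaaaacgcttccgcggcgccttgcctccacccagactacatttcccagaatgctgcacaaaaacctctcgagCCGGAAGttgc
Mrpl22, chr11:58171514-58171663, plus strand: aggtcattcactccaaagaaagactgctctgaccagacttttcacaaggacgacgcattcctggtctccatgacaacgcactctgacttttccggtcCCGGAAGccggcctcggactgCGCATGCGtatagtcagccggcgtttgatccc
Mrpl32, chr13:14613038-14613187, minus strand: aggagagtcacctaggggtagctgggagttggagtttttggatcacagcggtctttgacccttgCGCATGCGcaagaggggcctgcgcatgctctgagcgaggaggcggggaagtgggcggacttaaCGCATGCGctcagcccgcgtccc
Mrpl36, chr13:73330859-73331008, plus strand: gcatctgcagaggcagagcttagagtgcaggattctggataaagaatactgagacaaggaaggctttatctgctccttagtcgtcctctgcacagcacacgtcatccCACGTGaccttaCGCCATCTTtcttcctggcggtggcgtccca

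Motifs were searched in windows from 250 bases before to 50 after each start, on both strands and each by itself, so that bases could count for more than 1 motif. The letters were CGCATGCG for NRF1, CCGGAAG for GABP (an ETS factor), AAGATGGCG for YY1 and CACGTG for the E-box. RefSeq windows were matched to 62 of the 71 members. The GABP motif was found in 23 of the 62 (37.1%), compared with 12.9% of 17491 protein-coding genes with windows of the same length. YY1's motif stood in 8 (12.9% against 2.14%) and NRF1's in 7 (11.3% against 2.77%). The E-box stood in 5 (8.06% against 8.91%). Among the 10 called members with a window, 2 held the GABP motif (Mrps22 and Mrps16) and 0 held another of the motifs. Among the 52 not called, 21 held GABP's motif, 7 NRF1's, 8 YY1's and 5 the E-box. A match is a run of letters and shows no binding.

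The small subunit reads the messenger RNA. Of its 26 members, 6 were called higher (23.1%, Mrps36 among them) and 1 lower (3.85%), with a median log2 fold change of 0.12. The shares were 10.4% each way over all genes and 18.6% and 18.3% over genes brighter than the median gene. The signal of Mrps5, the counterpart of bacterial S5 at the entry path of the messenger, was 7.23, 7.05, 7.24 and 7.38 on the wild-type arrays and 7.46, 7.59, 7.60 and 7.76 on the knockout arrays. The knockout arrays all lay above the wild-type arrays, by 0.38 ± 0.0891 in the means (adjusted p = 0.016). A second, dimmer probe set of Mrps5 gave -0.02 ± 0.166, and with the mean of both the call was lost. Mrps9, the counterpart of S9 near the transfer RNA of the growing chain, read 7.44, 7.44, 7.45 and 7.38 in wild-type and 7.80, 7.78, 7.67 and 7.92 in knockout cells. The groups were apart, and the rise was 0.36 ± 0.0655 (adjusted p = 0.00402).

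Mrps22 and Mrps31 encode proteins that bacteria lack, and defects of MRPS22 cause mitochondrial disease in humans. Mrps22 read 6.85, 6.98, 7.13 and 6.97 in wild-type and 7.33, 7.23, 7.28 and 7.14 in knockout cells. Its groups came close without overlap, at a rise of 0.26 ± 0.0753 (adjusted p = 0.0381). For Mrps31 the wild-type values were 6.70, 6.84, 6.75 and 6.70 and the knockout values 6.93, 6.88, 7.05 and 7.13, again with no overlap, a rise of 0.25 ± 0.0737 (adjusted p = 0.0411). Mrps15, the counterpart of the rRNA-binding S15, read 8.09, 8.10, 8.15 and 8.21 in wild-type and 8.32, 8.28, 8.35 and 8.41 in knockout cells. Every knockout array lay above every wild-type array, and the rise was 0.20 ± 0.0571 (adjusted p = 0.0356). These calls were near the threshold: Mrps22 and Mrps15 passed in 11 of 18 alternative analyses each and Mrps31 in 10.

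Mrps36 had the highest change of all members and the dimmest signal. Its protein is now known as a component of the alpha-ketoglutarate dehydrogenase complex (KGD4), an enzyme of the citric acid cycle, and is no longer counted as a ribosomal protein. It read 3.57, 3.60, 3.71 and 3.69 in wild-type and 3.71, 4.21, 4.40 and 4.34 in knockout cells. Knockout replicate 1 lay within the wild-type range and the other 3 knockout arrays above it. The rise was 0.52 ± 0.141 (adjusted p = 0.0283), it passed in 9 of 17 alternatives, and the signal lay below that of the median gene (4.57), where a dim signal cannot be told from background.

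Mrps16, the counterpart of bacterial S16 and a gene mutated in a human mitochondrial disease, was the small subunit member called lower. It read 6.32, 6.17, 6.07 and 6.19 in wild-type and 5.86, 5.85, 5.83 and 5.99 in knockout cells. All knockout values lay below all wild-type values, with a log2 fold change of -0.31 ± 0.0698 (adjusted p = 0.0131). A second probe set of the gene, with means of 5.49 and 5.56, gave 0.06 ± 0.104, and the mean of both did not pass. The direction thus rests on 1 of 2 probe sets.

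Among other small subunit members, Mrps7, the counterpart of S7 in the head of the subunit, stood at 0.23 ± 0.0845 (adjusted p = 0.0964) and Mrps18b at 0.19 ± 0.0687 (adjusted p = 0.0951). Both are among the 5 members that missed the threshold most narrowly. Mrps18b read 7.97, 7.89, 7.72 and 7.86 in wild-type and 8.05, 7.99, 8.01 and 8.12 in knockout cells, with no overlap. The genes of its relatives had values of -0.11 ± 0.0737 (Mrps18c) and -0.08 ± 0.0637 (Mrps18a), neither of them called. Mrps12, the counterpart of the decoding-centre protein S12, stood at 0.12 ± 0.106 (adjusted p = 0.528), and the dim Mrps14 at 0.17 ± 0.109 (adjusted p = 0.354).

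**Figure D3:**
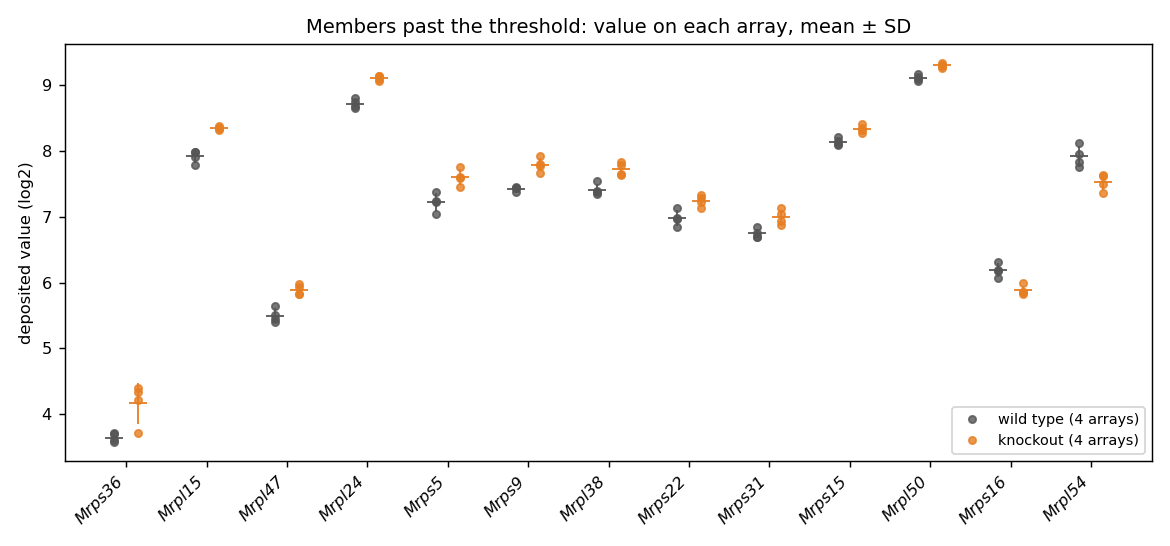
Deposited log2 signal (y axis) of the 13 members past the threshold on each of the 4 wild-type (grey) and 4 knockout (orange) arrays, with horizontal bars for means and vertical bars for SDs. Mrps36, at the left, is the dimmest and the one whose groups overlap (3.71 on the highest wild-type and the lowest knockout array).

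The large subunit joins amino acids and holds the tunnel through which the new chain leaves. Of its 45 members, 5 were called higher (11.1%, where all genes gave 10.4% and brighter genes 18.6%) and 1 lower (2.22%, where all genes gave 10.4% and brighter genes 18.3%). The median log2 fold change was 0.07. Proteins around the tunnel exit gave 2 of the 5 rises among 7 measured, Mrpl24 and Mrpl47, and the median of these 7 was 0.19. Mrpl24, whose bacterial counterpart starts assembly of the subunit, read 8.74, 8.80, 8.66 and 8.69 in wild-type and 9.14, 9.14, 9.07 and 9.10 in knockout cells. The groups lay well apart, at a rise of 0.39 ± 0.0557 (adjusted p = 0.00109), and the call held in 18 of 18 alternatives. Mrpl47, the counterpart of bacterial L29, read 5.44, 5.40, 5.65 and 5.50 against 5.83, 5.98, 5.94 and 5.82 in the knockout. These did not overlap either, and the rise was 0.39 ± 0.0731 (adjusted p = 0.00478). A second probe set of Mrpl47, dim at 2.73 and 3.04, gave 0.31 ± 0.203. Another, shared with Actl6a and with means of 7.10 and 7.19, gave 0.08 ± 0.0836.

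Other tunnel exit members were not called. Mrpl22, whose protein lines the tunnel, read 6.35, 6.10, 5.85 and 6.17 in wild-type and 6.29, 6.44, 6.45 and 6.43 in knockout cells, overlapping through wild-type replicate 1 and knockout replicate 1 (0.28 ± 0.103, adjusted p = 0.0902). Mrpl45, whose protein fixes the ribosome at the inner membrane, stood at 0.19 ± 0.0741 (adjusted p = 0.109). Mrpl17 and Mrpl39, among the 5 brightest members, stood at 0.03 ± 0.0899 and -0.05 ± 0.0525.

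The central protuberance lies at the top of the large subunit near the transfer RNAs. Of 6 members measured there, 1, Mrpl38, was called higher (16.7%), and the median was 0.11. The share called higher was 10.4% over all genes and 18.6% over brighter genes. Mrpl38, a protein without a bacterial counterpart, read 7.54, 7.34, 7.40 and 7.38 in wild-type and 7.84, 7.65, 7.79 and 7.64 in knockout cells. The lowest knockout array lay above the highest wild-type array, and the rise was 0.31 ± 0.0729 (adjusted p = 0.0143) with the call kept in 18 of 18 alternatives. Mrpl48, of the same region, had the smallest adjusted p among the members that missed, in the other direction (-0.18 ± 0.0639, adjusted p = 0.0878). Its wild-type values of 5.47, 5.32, 5.31 and 5.32 all lay above the knockout values of 5.17, 5.23, 5.09 and 5.22. Mrpl27, whose bacterial counterpart reaches toward the catalytic centre, was among the 3 dimmest members and stood at 0.25 ± 0.119 (adjusted p = 0.191).

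The stalk recruits translation factors. Of its 4 measured members 0 were called higher (0 also at an unadjusted p under 0.05 in limma) and 1, Mrpl54, lower, with a median of 0.07. The shares were 10.4% each way over all genes, and 18.6% higher and 18.3% lower over brighter genes. A list of 4 is too short to be set apart from them. Mrpl54 read 7.96, 7.76, 7.84 and 8.12 in wild-type and 7.62, 7.63, 7.50 and 7.36 in knockout cells. The genotypes were separate, with wild-type replicate 4 the highest and knockout replicate 4 the lowest, and the log2 fold change of -0.39 ± 0.0955 (adjusted p = 0.0179) was the lowest of all members. Mrpl12, the factor-binding protein of the stalk, stood at 0.13 ± 0.0716 (adjusted p = 0.25) and Mrpl11, at the stalk base, at 0.04 ± 0.0654 (adjusted p = 0.769).

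Of the remaining large subunit members 2 were called, both higher. Mrpl15, the counterpart of bacterial L15, read 7.98, 7.91, 7.79 and 7.99 in wild-type and 8.32, 8.35, 8.38 and 8.35 in knockout cells. The knockout arrays lay close together and above the wild-type arrays, at a rise of 0.43 ± 0.0624 (adjusted p = 0.00117). Mrpl50, which bacteria lack and the brightest member, read 9.17, 9.06, 9.13 and 9.10 against 9.29, 9.27, 9.34 and 9.31. That small gap, 0.19 ± 0.053, passed at an adjusted p of 0.034 with no overlap, and in 8 of 18 alternatives. Mrpl58 (also called Ict1), which releases stalled chains, stood at 0.01 ± 0.0716. Mrpl32, which is cut by the m-AAA protease before assembly, stood at 0.15 ± 0.0896 (adjusted p = 0.297), and Mrps30 at 0.02 ± 0.0535.

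Counts by the origin of the protein were as follows. Of the 44 with a bacterial homologue 6 were called higher (13.6%) and 1 lower, with a median of 0.11. Of the 27 without one 5 were higher (18.5%, Mrps36 among them) and 1 lower, with a median of 0.07. Both higher shares lay between the 10.4% of all genes and the 18.6% of brighter genes. More than 1 single-gene probe set was present for 9 members, and their calls differed for Mrps5, Mrps16 and Mrpl47 as given above. Among the 7 members measured by shared probe sets, Mrpl30 (0.52 ± 0.125, shared with Gm6238) and Mrpl44 (0.28 ± 0.0784, shared with Wdfy1) were higher. Mrps6 (-0.49 ± 0.0556, shared with Slc5a3) and Mrpl33 (-0.33 ± 0.0512, shared with Babam2) were lower. Which gene of each such pair these signals come from cannot be told apart from 1 probe set. A second probe set of Mrpl33, shared with Gm38424 in place of Babam2, gave -0.35 ± 0.071. With the 7 shared members included, 13 of 78 were higher and 4 lower.

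The called members lay on chromosomes with both high and low shares of changed genes. Of the 8 members on chromosomes 1 and 3, 4 were called higher (Mrpl15, Mrps9, Mrpl24 and Mrpl47). On those chromosomes 23.4% and 25.4% of all genes were higher, against 10.4% over all genes. The shares higher were 17.4% on chromosome 2 (Mrps5), 12.9% on 11 (Mrpl38), 11.5% on 8 (Mrps31) and 8.05% on 9 (Mrps22). They were 7.87% on chromosome 4 (Mrps15 and Mrpl50) and 6.18% on 13 (Mrps36). Mrpl54 lies on chromosome 10, where 23% of genes were lower, and Mrps16 on chromosome 14, where 15.4% were lower. An alternative chosen after the data were seen took, for each gene, the 30 closest brighter genes to its left and right and subtracted their median change from the knockout values. In limma 9 members were then higher and 0 lower, with 18 higher and 1 lower at an unadjusted p under 0.05. Over all genes, 2161 were then higher and 2267 lower, compared with 2314 and 2312 before the subtraction. At the unadjusted threshold these were 3536 and 3635 after it. The rise of Mrps9 then came to 0.00 (adjusted p = 0.979, with 0.000165 to 0.979 over all alternatives), as its neighbours had a median of 0.36. Mrpl15 came to 0.13 (adjusted p = 0.203, range 1.03e-05 to 0.203) and Mrpl47 to 0.16 (adjusted p = 0.159, range 0.000754 to 0.159). Mrps5 came to 0.25 (adjusted p = 0.0845, range 0.0013 to 0.245) and was no longer called either. Mrpl24, at 0.25 (adjusted p = 0.014, the highest of its alternatives), and Mrpl38, at 0.31 (adjusted p = 0.0174, range 0.00126 to 0.0432), stayed past the threshold. So did Mrps36 (0.57), Mrps31 (0.40), Mrps22 (0.33), Mrps15 (0.23) and Mrpl50 (0.18). The falls of Mrps16 and Mrpl54 both came to -0.20 and were no longer called (adjusted p = 0.0758, range 0.00241 to 0.334, and 0.197, the highest of its range from 0.00118). Mrpl42 (0.31) and Mrps18b (0.25) were called in that analysis. The share of positive values was 73.2% after the subtraction as before, and the median 0.09.

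**Figure D4:**
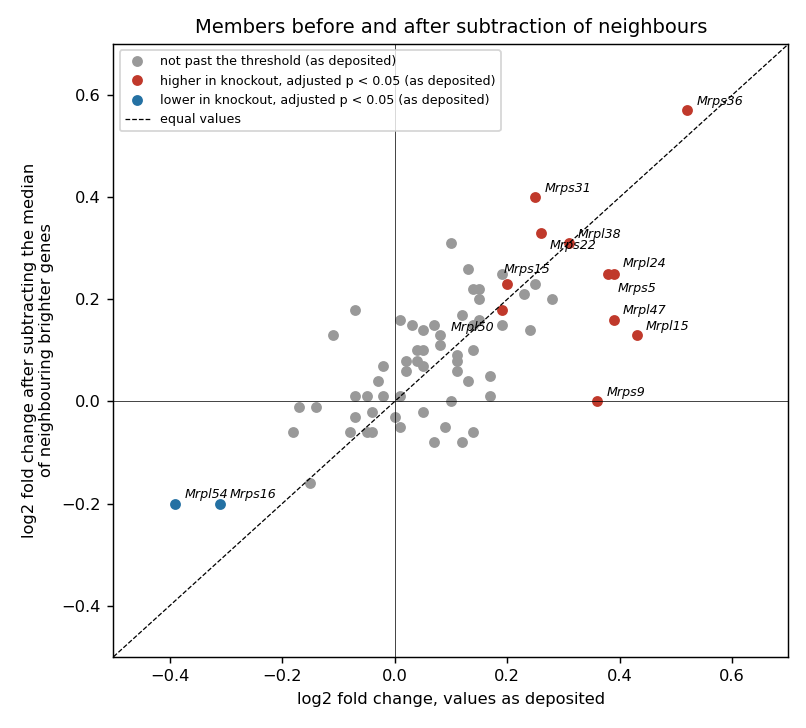
Log2 fold change of the 71 members as deposited (x axis) against the value after the median change of neighbouring brighter genes was subtracted (y axis), with the 13 called members in colour and equal values on the dashed line. Mrps9, Mrpl15 and Mrpl47 lie well below the line, Mrpl38 lies on it, and Mrps31 lies above it (0.25 before and 0.40 after).

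Many of these genes share a promoter region with a neighbour that is read the other way. Of the 62 members with a RefSeq start site, 22 (35.5%) had such a partner starting within 1000 bases, against 8.82% of 17491 protein-coding genes. Among the 22 partners, named here after their values were seen, 2 were higher and 3 lower in the knockout. These counts are near the share of all genes, 10.4% in each direction. Mrpl46 and Mrps11 are partners of each other, so that this pair is counted from both sides. Mrpl47 and Ndufb5, a complex I subunit gene 308 bases away, were the only pair with both genes called. Both rose (Ndufb5 from 7.43 to 7.95, by 0.52 ± 0.0682, adjusted p = 0.000688). In contrast, Ncapd2, a condensin gene next to Mrpl51, stood at -0.79 ± 0.0763 and Ska3, a kinetochore gene next to Mrpl57, at -0.76 ± 0.151. Mrpl51 itself stood at 0.04 ± 0.0641 and Mrpl57 at 0.13 ± 0.111. Mrps12 and its partner Sars2, which charges transfer RNA in the same organelle, stood at 0.12 and -0.10.

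Over the arrays the members moved by little as a set. Their median deviation from each gene's mean was 0.01, -0.09, -0.04 and -0.03 on wild-type arrays 1 to 4 and 0.02, 0.06, 0.06 and 0.03 on the knockout arrays. Wild-type replicate 2 was the lowest of its group for 27 of the 71 members, and wild-type replicates 1, 3 and 4 for 13, 15 and 16. Replicate 1 of the knockout lay only slightly above replicate 1 of the wild type. Without wild-type replicate 2 the members' median log2 fold change was 0.06, and without knockout replicate 4 it was 0.11. After each genotype's mean was removed, the correlation of a member with the median of the others was over 0 for 51 members. The median r was 0.32 over the 8 arrays, each gene's values coming from the same 8 RNA samples. Whether this differs from other sets of genes was not tested. The members most like the rest were Mrpl36 (r = 0.90), Mrpl12 (0.87) and Mrps12 (0.84), none of them called, and the least like were Mrpl1 (-0.89), Mrps2 (-0.72) and Mrpl2 (-0.69).

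Genes that build and serve the mitochondrial ribosome were described from lists of known function. Of 3 further ribosomal proteins with other symbols, Dap3, a GTP-binding protein of the small subunit, rose by 0.33 ± 0.0516 (adjusted p = 0.00179). Ptcd3 and Gadd45gip1 were not called. Over all 22180 genes 10.4% were called each way, and 3397 were higher and 3505 lower at an unadjusted p under 0.05 in limma. Over the 11090 genes brighter than the median gene 18.6% were called higher and 18.3% lower, with 2770 and 2831 at the unadjusted threshold. Both sets serve as background here and for the lists below. Among 26 measured assembly factors, 5 were higher (19.2%) and 0 lower (7 and 2 at an unadjusted p under 0.05 in limma). Their median was 0.03. Tfb1m, which methylates the small ribosomal RNA, read 7.40, 7.46, 7.58 and 7.40 in wild-type and 7.90, 7.95, 8.03 and 8.21 in knockout cells. The knockout arrays all lay above the wild-type arrays, at a rise of 0.57 ± 0.083 (adjusted p = 0.00128). Fastkd2, an RNA-binding protein of mitochondrial RNA granules, rose by 0.40 ± 0.0621, which came to 0.10 after its brighter neighbours were subtracted. Afg3l2, a subunit of the m-AAA protease that cuts the Mrpl32 protein, rose by 0.35 ± 0.0708 (adjusted p = 0.00737).

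Among 15 measured translation factors, 5 were higher (33.3%) and 0 lower (6 and 1 at an unadjusted p under 0.05 in limma). Their median was 0.14. Mtrf1, a release factor, read 4.58, 4.48, 4.63 and 4.54 in wild-type and 5.08, 5.22, 5.06 and 5.03 in knockout cells. The gap was several times the spread, at 0.54 ± 0.0639 (adjusted p = 0.000379). Mtif2, the initiation factor, rose by 0.44 ± 0.0702 (adjusted p = 0.00197). Gfm1, an elongation factor, rose by 0.42 ± 0.0789 (adjusted p = 0.00485), or 0.17 with brighter neighbours subtracted. Of 19 enzymes that charge mitochondrial transfer RNAs, 4 were higher (21.1%) and 0 lower (8 and 1 at an unadjusted p under 0.05). Their median was 0.12. Tars2 (threonine) rose by 0.51 ± 0.0667, Gatb, a subunit of the enzyme that makes glutaminyl transfer RNA, by 0.50 ± 0.0629, and Pars2 (proline) by 0.40 ± 0.0923.

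Of 23 genes of mitochondrial DNA upkeep, transcription and RNA handling, 5 were higher (21.7%) and 1 lower (4.35%), with a median of 0.05. Polg2, the accessory subunit of the mitochondrial DNA polymerase, rose by 0.46 ± 0.0882, Mgme1, an exonuclease, by 0.39 ± 0.0791, and Pnpt1, an RNA-degrading enzyme, by 0.31 ± 0.0618. Supv3l1, the helicase that works with Pnpt1, was lower (-0.31 ± 0.072, adjusted p = 0.0152). With brighter neighbours subtracted, Supv3l1 came to -0.13 (adjusted p = 0.262, range 0.00133 to 0.262) and Mgme1 to 0.17 (adjusted p = 0.165, range 0.00139 to 0.165), and neither was called. The mitochondrial RNA polymerase Polrmt stood at -0.00 ± 0.056 and the packaging factor Tfam at 0.08 ± 0.1, neither called.

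No messenger RNA that this ribosome translates was called. Of the 13 messenger RNAs of mitochondrial DNA, 10 were measured, 0 passed in limma, and 0 had an unadjusted p under 0.05. Their changes lay between -0.04 and 0.15 with a median of -0.02. The largest, ND6, the one messenger from the other strand, read 8.73, 8.55, 8.61 and 8.58 in wild-type and 8.72, 8.73, 8.70 and 8.90 in knockout cells, with overlap (0.15 ± 0.0687, adjusted p = 0.189; named after its value was seen). The other 9 read between 12.30 and 13.16 on every array, close to the highest value of any probe set, 13.55, where differences can be compressed.

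Of 59 cytosolic ribosomal protein genes measured, 1 was higher (1.69%) and 6 were lower (10.2%), against 10.4% each way over all genes and 18.6% and 18.3% over brighter genes. Their median was -0.06, and 25.4% of values were positive. Rps12 read 11.53, 11.43, 11.55 and 11.56 in wild-type and 11.13, 11.19, 11.13 and 11.11 in knockout cells. The groups were well apart, at -0.38 ± 0.0558 (adjusted p = 0.00135). Rplp1 (-0.23 ± 0.0577) and Rps26 (-0.22 ± 0.0586) were also lower, and Rpl7 was higher (0.29 ± 0.0862, adjusted p = 0.0435). After brighter neighbours were subtracted, 0 of the 59 were called higher and 1 lower in limma (2 and 7 at an unadjusted p under 0.05), while 23.7% of values were positive. Over all genes, 2161 were then higher and 2267 lower (3536 and 3635 at the unadjusted threshold), and 50.7% of values were positive. The 1 lower cytosolic gene was Rpsa (-0.28, adjusted p = 0.0369), which was not called before the subtraction. Rps12 came to -0.15 (adjusted p = 0.0978) and Rplp1 to -0.16 (adjusted p = 0.095). Rps26 came to -0.07 (adjusted p = 0.446) and Rpl7 to -0.02 (adjusted p = 0.916), so that none of the genes named before was still called. The difference between the cytosolic and mitochondrial genes as sets was not tested.

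**Figure D5:**
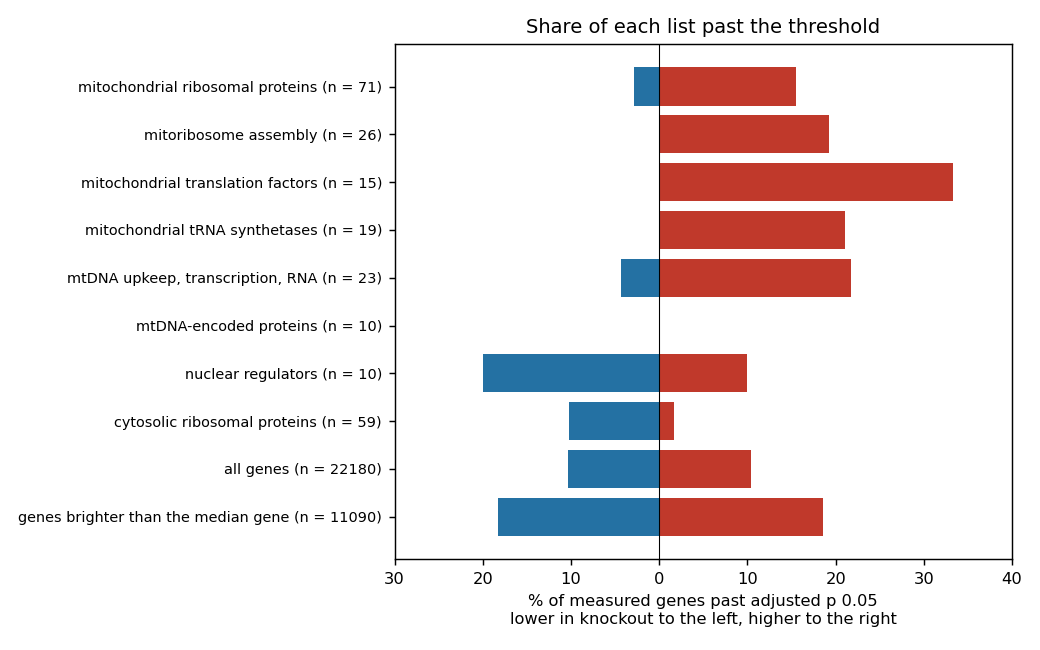
Percentage of measured genes past an adjusted p of 0.05 (x axis), lower in the knockout to the left in blue and higher to the right in red, for the mitochondrial ribosomal proteins, the related lists, all genes and the genes brighter than the median gene. Mitochondrial ribosomal proteins show 15.5% higher and 2.82% lower, all genes 10.4% in each direction, and the mitochondrially encoded messengers 0% in both.

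Nuclear regulators of mitochondrial genes gave 1 rise (10%) and 2 falls (20%) among 10. Ppargc1b, a coactivator, rose by 0.35 ± 0.0727 (adjusted p = 0.00881), and its relative Ppargc1a stood at 0.09 ± 0.0705. Nrf1, the factor whose motif was searched above, read 6.59, 6.43, 6.42 and 6.54 in wild-type and 6.21, 6.22, 6.34 and 6.22 in knockout cells. Its knockout values all lay below its wild-type values (-0.25 ± 0.0647, adjusted p = 0.024). With brighter neighbours subtracted, the adjusted p was 0.0518 (0.0047 to 0.081 over all alternatives). Gabpa, the DNA-binding subunit of GABP, stood at -0.07 ± 0.0501 (adjusted p = 0.39). Myc, which also acts on ribosome genes, was lower by a larger amount (-0.67 ± 0.0694, adjusted p = 0.000176).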

How the data were processed

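The authors deposited 1 value for each probe set on each array, between 0.44 and 13.55. These deposited values were read as log2 from their range. How the authors corrected, normalized and summarised them was not given in the sources used here, and no further normalization was added. Of 41345 probe sets, 23521 had 1 gene symbol in the platform annotation, 1814 several and 16010 none. No measure of background was used.

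The fit used limma 3.58.1 in R 4.3.3 with genotype as its only term, all 8 arrays, two-sided p-values and Benjamini-Hochberg adjustment over 22180 genes, at a threshold of 0.05. The fit was tested on simulated data. Figures were drawn with matplotlib 3.10.9. The arrays give no counts, and their number, 4 a genotype, limits precision.

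The members, gene lists and tests were chosen with earlier results of these data known. Named were members past the threshold, the 5 nearest misses, the 5 brightest and 3 dimmest, 11 fixed members, those whose probe sets differed in call, the 3 most and 3 least like the others, and of each related list the 3 smallest adjusted p-values in each direction among genes that passed. Vwa8, Polrmt, Tfam, Ppargc1a, Nrf1 and Gabpa were always named, and every other gene was named after its values were seen. Genes were ordered along chromosomes by a RefSeq table (GRCm38.p6), which 21994 genes matched.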

Additional observations from a re-analysis of the deposited data

Results flagged for a closer look

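Among 68 groups of 4 arrays, 1 for each named member and genotype, 5 held an array far from the other 3, by a ratio of the gap to the range above Dixon's critical value at the 95% level. Chance marks about 1 group in 20 in this way. Wild-type replicate 4 of Mrps9 read 7.38 against 7.44 to 7.45 on the other wild-type arrays, and wild-type replicate 1 of Mrpl48 read 5.47 against 5.31 to 5.32. In the knockout, replicate 1 of Mrpl22 read 6.29 against 6.43 to 6.45, replicate 3 of Mrps12 read 6.53 against 6.34 to 6.37, and replicate 2 of Mrpl32 read 7.58 against 7.21 to 7.25.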

How the results depend on the processing

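Over 20 alternatives no named change turned its direction while called, and the median change of the members stayed between 0.06 and 0.11. Leaving out each array in turn gave 6 to 8 higher members, with 2 lower each time, and 8 of the 13 called members passed in every such fit (Mrpl15, Mrpl24, Mrpl38, Mrpl47, Mrpl54, Mrps16, Mrps5 and Mrps9). The number of higher members was 7 or fewer without any one of wild-type replicates 2, 3 and 4 (7 each), knockout replicates 1 and 4 (7 each) or knockout replicate 3 (6). Same-numbered arrays of the genotypes deviated together at r of 0.06, -0.00, 0.02 and 0.03, and not every array correlated best with its own number, so the numbers were not taken to pair the cultures. With the replicate block, 7 members were higher and 1 lower. At a threshold of 0.01 there were 4 higher and 0 lower members and 2869 genes (12.9%). The lower members numbered 1 when the probe sets of a gene were averaged, 1 with the neighbour median subtracted, 0 with the brighter neighbour median subtracted, and 4 with shared probe sets. Without the dimmest 50% of genes, 48 genes of the related lists passed in place of 31. An intensity trend with robust variances gave 16 higher members, adding Mrpl22, Mrpl34, Mrpl45, Mrps18b and Mrps7. Over all genes, 4626 passed in the main fit. More of them passed with the intensity trend, and more also without the dimmest 50% of genes. Fewer passed with the replicate block, with probe sets averaged and with either neighbour median subtracted. Whether the members shifted more than all genes was not tested. The cause of these shifts was not tested. With 4 arrays a genotype and changes mostly under 0.2, calls near the threshold depend on single arrays.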
